A study of Arabis alpina with 12 samples.

Results

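TPS9, TPS11, BZIP1, KMD4 and BCAT2 are genes whose Arabidopsis thaliana homologues are known as low-sugar response genes, and their levels were followed in lateral buds of the perennial relative Arabis alpina, ecotype Pajares. They were chosen by locus (AT1G23870, AT2G18700, AT5G49450, AT3G59940 and AT1G10070) from the homologues in the deposited comparison tables. Each locus matched 1 gene, so that 5 of the 19722 genes in the deposited table were taken. The tables give homologues for genes the authors listed as changed, so each of the 5 had been listed in at least 1 comparison of these same libraries. A test in such a comparison is therefore not independent evidence. TPS9 was listed for V3 against V2 at 5 d and for the change over time in V3, and so was KMD4. BZIP1 was listed for those and for the change over time in V2, TPS11 for the zones at 5 d, and BCAT2 for the zones at both times.

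Polyadenylated RNA was sequenced from 12 libraries in 4 groups of 3, which the labels call biological replicates, so the spread behind each p-value is that between these libraries. Every plant was 8 weeks old when vernalization began, raised under long days (16 h of light at 20 °C, 8 h of darkness at 18 °C), and then spent 12 weeks at 4 °C under the same photoperiod. The 5 d plants went back to long days at the end of the cold. The groups are buds of the growing zone (V3) 5 days after the end of the cold (5 d), buds of the dormant zone (V2) at 5 d, V3 buds at the end of the cold (0 d), and V2 buds at 0 d. The sources used here do not say how many plants or buds went into a library.

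Plant cells short of sugar release the kinase SnRK1 from inhibition by trehalose 6-phosphate, and SnRK1 then shifts transcription from growth towards the breakdown of protein, lipid and amino acids. Outgrowth of a lateral bud depends on sugar supply, and transcripts of this low-sugar programme are known from dormant buds of several species. In A. thaliana, TPS9 and TPS11 encode class II trehalose phosphate synthases, proteins of the synthase family with little or no measured synthase activity, whose transcripts sugar represses. BZIP1 encodes a basic leucine zipper factor of group S1 that pairs with group C factors and acts downstream of SnRK1. KMD4 encodes an F-box protein of a family that marks type-B cytokinin response regulators for degradation. BCAT2 encodes a branched-chain amino acid aminotransferase, and these amino acids are an alternative fuel when sugar is short.

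Library depth came to between 12252622 and 22586938 recovered reads. V2 0 d replicate 3 was the shallowest and stood apart, with 38.7% of genes at 0 against 9.94% to 14.8% in the other 11 libraries. Zeros contradicted by FPKM or by partner libraries were treated as failed measurements and left out. They numbered 6553 in that library and 886 to 1224 in each of the others. TPS9, TPS11, BZIP1 and KMD4 held no zero in any library, and their lowest count was 39 reads, for BZIP1 in V3 5 d replicate 2. BCAT2 held 5 zeros, all in V3 buds, of which 3 were failed by this rule.

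Levels per transcript length are given first, as FPKM, the authors' fragments per kilobase of transcript and per unit of sequencing depth. KMD4 was the most abundant of the 5 genes in each of the 4 groups, and BZIP1 and BCAT2 were the least abundant. KMD4 averaged 32.3 ± 7.92 FPKM in V3 and 191 ± 31.7 in V2 at 5 d, and 68.7 ± 22.5 in V3 and 102 ± 22.6 in V2 at 0 d (SD, n = 3 each, here and below). TPS9 averaged 13.1 ± 2.23 FPKM in V3 and 58.8 ± 5.44 in V2 at 5 d, and 35.0 ± 4.76 in V3 and 38.4 ± 6.37 in V2 at 0 d. TPS11 averaged 12.8 ± 2.55 FPKM in V3 and 49.99 ± 5.48 in V2 at 5 d, and 23.9 ± 5.23 in V3 and 33.3 ± 2.39 in V2 at 0 d. The 2 synthase-like genes overlapped in FPKM in V3 and V2 at 5 d and in V2 at 0 d, while TPS11 lay below TPS9 in V3 at 0 d. BZIP1 averaged 4.19 ± 0.619 FPKM in V3 and 26.1 ± 2.29 in V2 at 5 d, and 7.98 ± 2.16 in V3 and 11.8 ± 2.04 in V2 at 0 d. BCAT2 averaged 1.79 ± 0.401 FPKM in V3 and 12.7 ± 3.02 in V2 at 5 d, and 1.08 ± 1.14 in V3 and 10.6 ± 2.59 in V2 at 0 d. In descending order of mean FPKM, the groups ran V2 5 d, V2 0 d, V3 0 d and V3 5 d for TPS9, TPS11, BZIP1 and KMD4. The middle neighbours in that order, V2 0 d and V3 0 d, overlapped in FPKM for TPS9, BZIP1 and KMD4 and were separate for TPS11. The outer neighbours were separate for each of these 4 genes. The share of all genes with groups separate in this way was not counted, so separation is a description, here and below. BCAT2 followed another order, with both V2 groups above both V3 groups and overlap between the times within each zone.

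**Figure D1:**
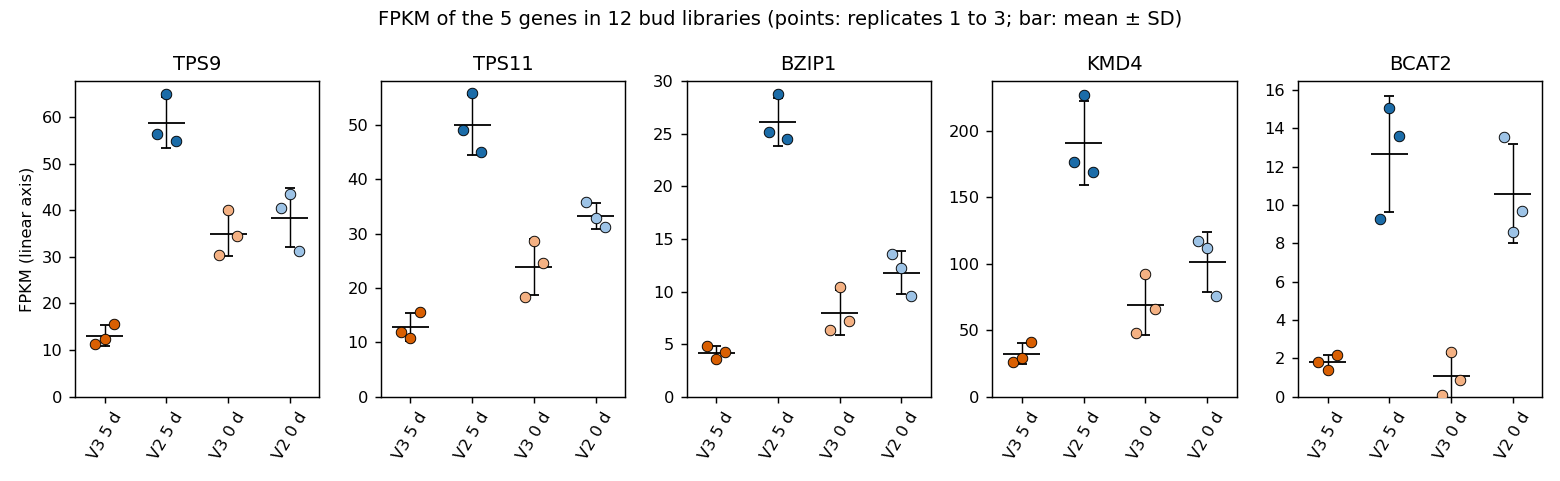
FPKM on a linear axis for each gene in the 12 libraries, with groups on the horizontal axis, points for libraries, and the mean ± SD as bars. For TPS9, TPS11, BZIP1 and KMD4 the V2 5 d libraries stand highest and the V3 5 d libraries lowest, while BCAT2 is high in V2 at both times.

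At 5 d the growing-zone buds stood below the dormant-zone buds for all 5 genes. For TPS9, TPS11, BZIP1 and KMD4 the fold between the zones was larger than at 0 d, whereas the FPKM ratio of BCAT2 was not. TPS9 had 901, 1000 and 1253 normalized counts in V3 and 4892, 5911 and 4621 in V2. TPS11 had 736, 625 and 895 in V3 and 3047, 3483 and 2736 in V2. Every V3 library lay below every V2 library for both genes. TPS9 was 4.90-fold lower in V3 (log2 fold change -2.29, SE 0.15, adjusted p = 1.63e-05) and TPS11 4.13-fold lower (log2 fold change -2.05, SE 0.18, adjusted p = 8.56e-05), by limma with Benjamini-Hochberg adjustment over all genes tested, as for each adjusted p below. BZIP1 had 64.3, 41.2 and 46.8 normalized counts in V3 and 418, 434 and 386 in V2. KMD4 had 760, 825 and 1223 in V3 and 5591, 7173 and 5132 in V2. The zones were again separate, and BZIP1 showed the largest fold among the 4 genes tested. BZIP1 was 8.12-fold lower in V3 (log2 fold change -3.02, SE 0.24, adjusted p = 3.93e-05 by limma), and KMD4 was 6.44-fold lower (log2 fold change -2.69, SE 0.29, adjusted p = 0.000242 by limma). All 4 genes tested were called lower in V3, where 19.9% of the 17273 genes tested were called lower, 16.2% higher and 36.2% either way. The authors had listed these genes for this comparison, so nothing is read from that count. Their median log2 fold change was -2.49, against -0.04 for all genes tested. All 4 calls held without any single library. In bulk libraries, fewer cells of a type and less RNA per cell cannot be told apart.

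BCAT2 was left untested at 5 d by the rule on failed zeros. V3 replicate 1 had 4.87 normalized counts, while replicates 2 and 3 were listed at 0 although their FPKM exceeded the minimum of 1. In V2 it had 162, 336 and 179 normalized counts at 5 d. By FPKM, BCAT2 stood at 1.80, 1.39 and 2.19 in V3 and at 9.28, 15.1 and 13.6 in V2 at 5 d. The zones did not overlap, and the V2 mean was 7.06 times the V3 mean. The exact two-sided permutation test gave p = 0.1, which is the smallest that 3 libraries against 3 allow. Fits that keep these zeros did test the counts, and BCAT2 was called lower in V3 with limma on zeros as deposited (adjusted p = 0.000383), edgeR (adjusted p = 0.0189) and DESeq2 (adjusted p = 2.41e-15). These p-values rest on zeros that FPKM contradicts.

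At the end of the cold the zones were much closer for 4 of the 5 genes. TPS9 had 2651, 3362 and 2766 normalized counts in V3 and 3447, 3618 and 2851 in V2, and KMD4 had 1367, 2784 and 2001 in V3 and 3627, 3399 and 2375 in V2. V3 replicate 2 reached into the V2 range for both genes. TPS11 had 1077, 1723 and 1489 normalized counts in V3 and 2199, 2011 and 2002 in V2, and BZIP1 had 87.1, 153 and 110 in V3 and 206, 189 and 156 in V2. For these 2 genes each V3 library lay below each V2 library in counts, by a narrow margin for BZIP1, whose FPKM overlapped. None of the 4 passed the test. The log2 fold changes of V3 over V2 were -0.18 for TPS9 (adjusted p = 0.505 by limma), -0.56 for TPS11 (adjusted p = 0.107), -0.68 for BZIP1 (adjusted p = 0.121) and -0.65 for KMD4 (adjusted p = 0.196). The intervals of 2 SE either side reached from -0.49 to 0.13 for TPS9, from -0.92 to -0.19 for TPS11, from -1.15 to -0.21 for BZIP1 and from -1.22 to -0.07 for KMD4. DESeq2 called BZIP1 lower (adjusted p = 0.0355), and limma without V3 0 d replicate 2 called both TPS11 (adjusted p = 0.0465) and BZIP1 (adjusted p = 0.0437) lower.

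BCAT2 was the exception at 0 d. It was listed at 0 in all 3 V3 libraries, with FPKM of 0.0794, 2.32 and 0.849, and had 255, 209 and 157 normalized counts in V2, with FPKM of 13.5, 8.57 and 9.70. The zones were separate on both scales, with the V2 mean FPKM 9.77 times that of V3. The zero of V3 replicate 2 was left out as failed, and limma called BCAT2 lower in V3 (adjusted p = 7.63e-05). A group listed at 0 adds no spread to the fit, so this p can be too low, and the call could not be tested without V3 0 d replicate 1 or 3. The exact two-sided permutation test of FPKM gave p = 0.1, again the smallest possible. In all, 1 of the 5 genes was called lower at 0 d. Of the 16530 genes tested, 2.84% were called lower, 1.08% higher and 3.93% either way. This is a comparison for which the authors had listed BCAT2. Their median log2 fold change was -0.65, which does not depend on the value fitted to BCAT2 as long as it is the lowest, against -0.03 for all genes tested.

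Over the 5 days the same genes changed in opposite directions in the 2 zones. In V2 buds TPS9, TPS11, BZIP1 and KMD4 were higher at 5 d, and every 5 d library stood above every 0 d library for each of them. How many of all genes separate in this way was not counted, so nothing is read from the separation. The rise was 1.55-fold for TPS9 (log2 fold change 0.64, SE 0.15, adjusted p = 0.0183 by limma) and 1.49-fold for TPS11 (log2 fold change 0.57, SE 0.18, adjusted p = 0.0495). It was 2.25-fold for BZIP1 (log2 fold change 1.17, SE 0.24, adjusted p = 0.00856 by limma) and 1.92-fold for KMD4 (log2 fold change 0.94, SE 0.29, adjusted p = 0.0436). BCAT2 had 162, 336 and 179 normalized counts at 5 d and 255, 209 and 157 at 0 d in V2, and the times overlapped (log2 fold change 0.07, SE 0.33, adjusted p = 0.905 by limma). Thus 4 of the 5 genes were called higher, against 12.5% of the 16581 genes tested (11.3% were called lower and 23.7% either way). The authors had listed BZIP1, but not TPS9, TPS11, KMD4 or BCAT2, for this comparison. All 5 had been listed for V3 against V2 at 5 d, which uses the same V2 5 d libraries. The count is therefore not independent of the listings. The median log2 fold change of the 5 was 0.64, against 0.00073 for all genes tested.

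The rises in V2 other than that of BZIP1 were close to the threshold. TPS9 lost its call without V2 0 d replicate 3 or V2 5 d replicate 2 (adjusted p up to 0.0638 by limma). TPS11 kept its call only without V3 0 d replicate 1 or 2 or V3 5 d replicate 2 or 3, and lost it without any of the other 8 libraries in turn (adjusted p up to 0.145). KMD4 kept its call only without V3 0 d replicate 1 or 2 or V3 5 d replicate 3 (adjusted p up to 0.13 in the other 9 fits). BZIP1 stayed called without any single library (adjusted p up to 0.0311). With edgeR on recovered reads BZIP1 alone kept its call, at adjusted p of 0.0539 for TPS9, 0.122 for TPS11 and 0.101 for KMD4.

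In V3 buds the 4 genes fell over the same days. TPS9 fell 2.79-fold at 5 d relative to 0 d (log2 fold change -1.48, SE 0.15, adjusted p = 0.000196 by limma), and TPS11 fell 1.89-fold (log2 fold change -0.92, SE 0.18, adjusted p = 0.00638). BZIP1 fell 2.25-fold (log2 fold change -1.17, SE 0.24, adjusted p = 0.00674 by limma), and KMD4 fell 2.15-fold (log2 fold change -1.10, SE 0.29, adjusted p = 0.0222). Each 5 d library lay below each 0 d library for these genes, again with no share over all genes to set beside it. BCAT2 was left untested in V3 by the rule on failed zeros, and was not called with zeros as deposited (adjusted p = 0.592 by limma). Its FPKM of 1.80, 1.39 and 2.19 at 5 d overlapped with 0.0794, 2.32 and 0.849 at 0 d (exact two-sided permutation p = 0.4). All 4 genes tested were called lower, against 10.9% of the 17201 genes tested (13.4% were called higher and 24.3% either way), with a median log2 fold change of -1.14 against -0.02 for all. The authors had listed TPS9, BZIP1 and KMD4 for this comparison. TPS11 had been listed for V3 against V2 at 5 d, which uses the same V3 5 d libraries. This count, too, is not independent of the listings. The call for KMD4 ended without V3 0 d replicate 2 or 3 or V3 5 d replicate 1 or 2 (adjusted p up to 0.0788 by limma), and with edgeR on recovered reads (adjusted p = 0.0548). With only the V3 libraries in the fit, the calls for BZIP1 (adjusted p = 0.0579) and KMD4 (adjusted p = 0.0749) ended.

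The difference between the zones in the change over time was tested directly, as the change in V3 minus the change in V2. It was -2.12 for TPS9 on the log2 scale (SE 0.22, adjusted p = 0.000462 by limma) and -1.49 for TPS11 (SE 0.26, adjusted p = 0.0106). It was -2.34 for BZIP1 (SE 0.33, adjusted p = 0.00372 by limma) and -2.04 for KMD4 (SE 0.41, adjusted p = 0.0191). All 4 genes tested had a more negative change in V3 than in V2 and were called, against 3.35% of the 16043 genes tested that were called in that direction, 4.05% in the other and 7.4% in either. The median of the 4 was -2.08, against -0.0044 for all. The authors' listings rest on the same libraries, so this count is not independent of them. A call as higher over time in V2 together with a call as lower over time in V3 was made for 76 of those 16043 genes, or 0.474%, and TPS9, TPS11, BZIP1 and KMD4 are 4 of the 76. The 4 differences held without any single library, except that KMD4 had an adjusted p of 0.0503 without V3 5 d replicate 2. On the FPKM scale, where BCAT2 could be included, its difference of changes in log2(FPKM + 1) was 0.33, against -1.97 for TPS9 and -1.41 for TPS11, -1.87 for BZIP1 and -1.96 for KMD4, as values with no test.

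**Figure D2:**
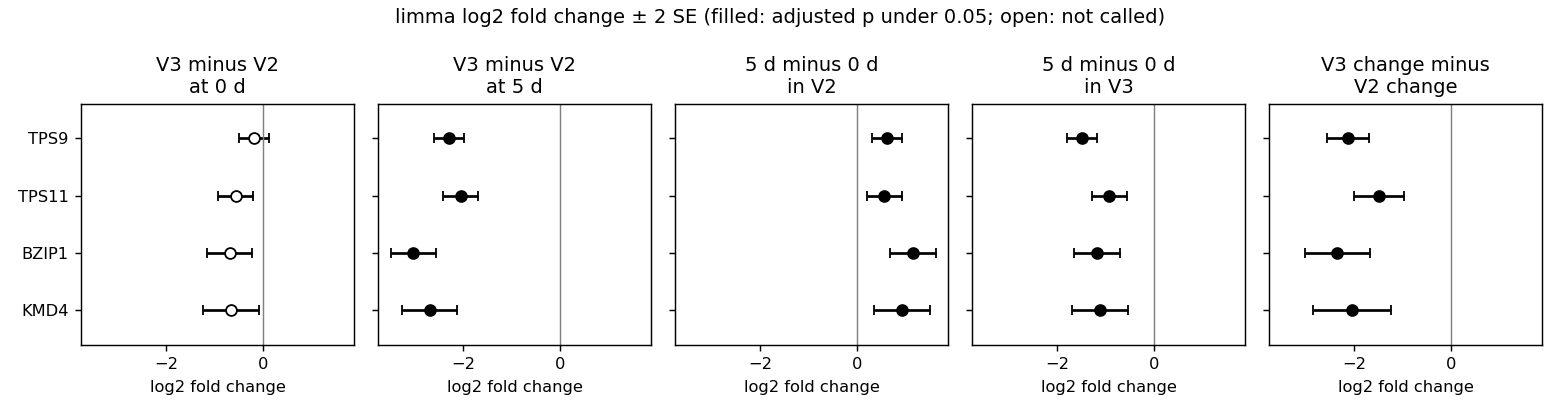
Log2 fold changes of 4 genes by limma in each comparison, with bars of 2 SE either side, filled points for an adjusted p under 0.05 and open points otherwise. The genes sit left of 0 in V3 against V2 at 5 d, right of 0 over time in V2 and left of 0 over time in V3, and the last panel shows the difference between the 2 changes.

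Some libraries stood at the same end of their group for most or all of the 5 genes. V3 0 d replicate 1 was the lowest and replicate 2 the highest of its group in FPKM for all 5 genes. V2 5 d replicate 2 was the highest of its group for all 5, and V3 5 d replicate 3 was the highest for 4 of 5. V2 0 d replicate 3, the shallow library, was the lowest of its group in FPKM for 4 of 5. As a share of summed normalized counts, however, this library was the highest of its group for TPS9, TPS11 and BZIP1. Its normalized counts summed to 13880859, against 20240667 and 20735859 in replicates 1 and 2. The spread within V3 at 0 d was accordingly wide for KMD4, from 47.8 to 92.4 FPKM. All genes of a library share its depth and its buds, so these are descriptions. How many of all genes share these orders was not counted, so nothing particular to the 5 genes is read from them.

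**Figure D3:**
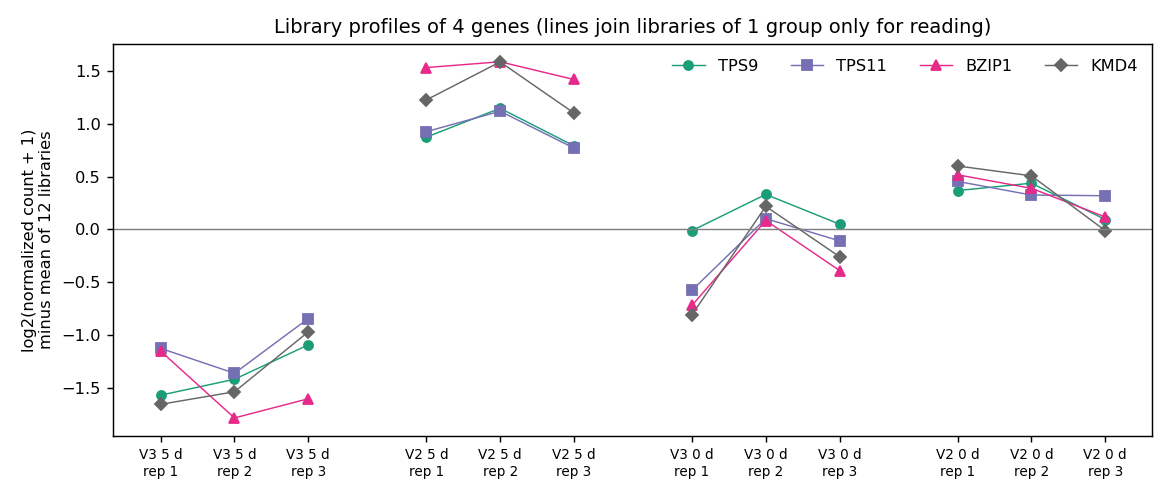
Log2(normalized count + 1) of 4 genes minus each gene's mean over the 12 libraries, by library, with lines joining the 3 libraries of a group for reading. The 4 genes share the order of group means, and all are low in V3 0 d replicate 1 relative to replicate 2 of that group.

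The proportions of TPS11, KMD4 and BZIP1 to TPS9 shifted less than their levels. TPS11 stood at 0.978 ± 0.102 times the FPKM of TPS9 in V3 and 0.850 ± 0.0279 in V2 at 5 d, and at 0.678 ± 0.0676 in V3 and 0.881 ± 0.122 in V2 at 0 d. KMD4 stood at 2.45 ± 0.179 times TPS9 in V3 and 3.24 ± 0.229 in V2 at 5 d, and at 1.93 ± 0.373 in V3 and 2.63 ± 0.247 in V2 at 0 d. BZIP1 stood at 0.328 ± 0.0860 times TPS9 in V3 and 0.445 ± 0.00216 in V2 at 5 d, and at 0.226 ± 0.0306 in V3 and 0.308 ± 0.0277 in V2 at 0 d. BCAT2 was set against BZIP1 instead, a ratio of another kind. It stood at 0.428 ± 0.0775 times the FPKM of BZIP1 in V3 and 0.483 ± 0.0999 in V2 at 5 d. At 0 d it stood at 0.118 ± 0.105 in V3, where BCAT2 was as low as 0.0794 FPKM, and at 0.903 ± 0.175 in V2.

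Likeness of profile was measured as the root mean square difference of log2(normalized count + 1), centred on each gene's mean, over the 12 libraries. Among the 4 genes the closest pair was TPS9 and TPS11 at 0.247, and the farthest was TPS9 and BZIP1 at 0.444. BZIP1 and KMD4 lay at 0.287, with 1 of the 9997 other genes compared nearer to BZIP1 and 1 nearer to KMD4. Other pairs had more genes in between. For TPS9 and TPS11 the numbers were 3 and 5 in that order, for TPS9 and BZIP1 62 and 26, and for TPS11 and BZIP1 100 and 14. Of 1218 other genes that carried a symbol, the nearest to TPS9 were DREB2B (0.272), the sugar transporter gene STP4 (0.284) and LBD39 (0.305). The nearest to TPS11 were KUP6 (0.238), EXL4 (0.262) and GID1C (0.264). ERF73 (0.290), LBD39 (0.302) and BZIP44 (0.326) were nearest to BZIP1, and NAC089 (0.332), STP4 (0.344) and KUP6 (0.365) to KMD4. LBD39, STP4 and KUP6 each appeared for a pair of the 4 genes. BCAT2 had failed zeros and was not compared. TPS9, TPS11, BZIP1 and KMD4 had all been listed for V3 against V2 at 5 d in these libraries. Symbols were given only for genes the authors listed. Nearness is therefore a description, and nothing is read from the numbers of nearer genes.

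Other genes of the low-sugar pathway were taken from a list of 73 loci in 9 roles. Apart from the 5 genes it held 68 loci, of which 11 could be paired with an A. alpina gene, all of them listed as changed by the authors. Because that listing rests on these libraries, the counts that follow are descriptions, and nothing is read from them. At 5 d, 6 of the 9 tested were called lower in V3 than in V2 and none higher, where 19.9% of all genes tested were lower and 16.2% higher (median log2 fold change -1.15, against -0.04 for all). At 0 d, 3 of 9 were lower and none higher, where 2.84% of all were lower and 1.08% higher (median -0.88, against -0.03). Over time in V2, 5 of 10 were higher and 2 lower, where 12.5% of all were higher and 11.3% lower (median 0.30, against 0.00073). Over time in V3, 5 of 8 were lower and none higher, where 10.9% of all were lower and 13.4% higher (median -1.03, against -0.02). The difference of changes was called in 3 of 8, each more negative in V3, where 3.35% of all were called in that direction and 4.05% in the other (median -1.06, against -0.0044).

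The KMD family was represented by all 4 of its loci in the list, which do not share 1 pattern. KMD1 had 154, 110 and 149 normalized counts in V3 and 4108, 5363 and 3487 in V2 at 5 d, and 728, 1420 and 993 in V3 and 2550, 1990 and 1252 in V2 at 0 d. Its zones were far apart at 5 d, with 1 V3 library inside the V2 range at 0 d. KMD1 was lower in V3 at 5 d (log2 fold change -4.96, SE 0.31, adjusted p = 1.02e-05 by limma), and fell over time in V3 (log2 fold change -2.88, adjusted p = 0.000245). It rose in V2 (log2 fold change 1.20, adjusted p = 0.0245 by limma), a call that ended without V2 0 d replicate 2 or 3 or V2 5 d replicate 1 or 2 (adjusted p up to 0.0817), with only FPKM-contradicted zeros left out (adjusted p = 0.0508) and with edgeR (adjusted p = 0.0608). The difference of its changes was -4.08 (adjusted p = 0.000649 by limma). KMD2 and KMD3 were lower in V3 at 5 d as well, by log2 fold changes of -1.22 (adjusted p = 0.00338) and -1.12 (adjusted p = 0.00321 by limma). In V2, however, their changes over time were below 0, at -0.44 for KMD2 (adjusted p = 0.19 by limma) and -0.71 for KMD3 (adjusted p = 0.0374). The call for KMD3 in V2 ended in 9 of the 12 fits without 1 library and was kept without V3 0 d replicate 1 or 2 or V2 5 d replicate 2 (adjusted p up to 0.12). It also ended with zeros as deposited, with only FPKM-contradicted zeros left out, with edgeR and with only the V2 libraries in the fit (adjusted p up to 0.0883). Over time in V3, KMD2 fell (log2 fold change -1.39, adjusted p = 0.00245 by limma) and so did KMD3 (-0.83, adjusted p = 0.0181), whose call there ended without V3 0 d replicate 2 or V3 5 d replicate 1 or 3 (adjusted p up to 0.055) and with edgeR (adjusted p = 0.0553). At 0 d KMD3 was called lower in V3 as well (log2 fold change -0.99, adjusted p = 0.0362 by limma). That call ended in 8 of the 12 fits without 1 library (adjusted p up to 0.106). It also ended with zeros as deposited, with only FPKM-contradicted zeros left out, with edgeR, with only the 0 d libraries and with the replicate block (adjusted p up to 0.119). For KMD2 and KMD3 the difference of changes did not pass the test (-0.95, adjusted p = 0.114, and -0.13, adjusted p = 0.832, by limma). By FPKM, KMD1 and KMD4 were the abundant members in V2 at 5 d, at 158 ± 33.4 and 191 ± 31.7, against 4.04 ± 0.595 for KMD2 and 12.2 ± 3.68 for KMD3. Counts of closely related family members can be split between copies, and how the authors' counting treated such reads is not given in the sources used here.

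BZIP44, another basic leucine zipper gene of group S1, had 122, 103 and 103 normalized counts in V3 and 629, 823 and 618 in V2 at 5 d. At 0 d it had 166, 182 and 127 in V3 and 380, 279 and 338 in V2. The V3 libraries lay below the V2 libraries at both times. BZIP44 was lower in V3 at 5 d (log2 fold change -2.64, SE 0.19, adjusted p = 2.24e-05 by limma) and at 0 d (log2 fold change -1.07, adjusted p = 0.0166). The call at 0 d ended without V2 0 d replicate 1 or 3 (adjusted p up to 0.0675 by limma), with only FPKM-contradicted zeros left out and with only the 0 d libraries in the fit (adjusted p up to 0.151). It rose over time in V2 (log2 fold change 1.05, adjusted p = 0.00506 by limma), while its change in V3 was -0.51 (adjusted p = 0.0757). The difference of changes was -1.57 (adjusted p = 0.00926 by limma).

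In the breakdown of branched-chain amino acids, the step after BCAT2 is carried out by the branched-chain keto acid dehydrogenase, of which BCKDH E1A1 encodes a subunit. It had 198, 165 and 203 normalized counts in V3 and 896, 825 and 709 in V2 at 5 d, and the zones were separate (log2 fold change -2.10, SE 0.20, adjusted p = 0.000139 by limma). Its other calls were marginal, at -0.93 for the zones at 0 d (adjusted p = 0.0395 by limma), 0.63 over time in V2 (adjusted p = 0.0497) and -1.17 for the difference of changes (adjusted p = 0.0411). Those 3 calls ended in 11, 10 and 11 of the 12 fits that left out 1 library, with adjusted p up to 0.112, 0.145 and 0.0961. They also ended under several alternatives, zeros as deposited and edgeR among them (adjusted p up to 0.201, 0.123 and 0.114). The calls that stayed were those without V3 0 d replicate 2 for the zones, without V3 0 d replicate 1 or 2 for the change in V2 and without V3 0 d replicate 1 for the difference. D2HGDH, which encodes D-2-hydroxyglutarate dehydrogenase, was lower in V3 at 5 d (log2 fold change -1.15, adjusted p = 0.0156 by limma) and fell over time in V3 (log2 fold change -1.23, adjusted p = 0.0168). Its call at 5 d ended without V2 5 d replicate 1 or 2 (adjusted p up to 0.0541 by limma). Both of its calls ended with edgeR and with only the 2 groups compared in the fit (adjusted p up to 0.0693 at 5 d and 0.0893 over time in V3).

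The remaining paired genes of the list did not all follow the same course. SUS1, a sucrose synthase gene, had 1081, 1100 and 1260 normalized counts in V3 and 1249, 1440 and 1606 in V2 at 5 d, and 5712, 4127 and 4239 in V3 and 3763, 4475 and 5322 in V2 at 0 d. It fell over time in both zones, by a log2 fold change of -2.02 in V3 (adjusted p = 3.91e-05 by limma) and -1.65 in V2 (adjusted p = 0.000201). BT2, a BTB and TAZ domain gene, rose over time in V2 (log2 fold change 1.86, adjusted p = 0.0113 by limma), with FPKM of 5.45 ± 0.409 at 5 d and 1.91 ± 0.773 at 0 d. In V3 its FPKM was 0.724 ± 0.311 at 5 d and 2.36 ± 0.447 at 0 d, a change that was not tested. TPPG, a trehalose phosphate phosphatase gene, rose over time in V2 as well (log2 fold change 1.60, adjusted p = 0.0319 by limma), at FPKM of 0.471 ± 0.0345 at 5 d and 0.202 ± 0.0879 at 0 d. In V3 the FPKM of TPPG was 0.474 ± 0.0787 at 5 d and 0.129 ± 0.0227 at 0 d, also not tested. The TPPG call ended without V2 0 d replicate 1 or 2 or any 1 of the V2 5 d libraries (adjusted p up to 0.0889 by limma). It also ended with zeros as deposited, with only FPKM-contradicted zeros left out, with edgeR, with DESeq2 and with only the V2 libraries in the fit (adjusted p up to 0.75). The BT2 call ended with zeros as deposited, with edgeR and with DESeq2 (adjusted p up to 0.612). EXL1 passed no test, and its log2 fold change of V3 over V2 was -0.95 at 5 d (adjusted p = 0.368 by limma) and -2.35 at 0 d (adjusted p = 0.108). DIN11, a dark-inducible gene, ran the other way in FPKM, at 32.4 ± 7.00 in V3 and 2.60 ± 0.144 in V2 at 5 d, and 0.895 ± 0.388 in V3 and 0.483 ± 0.522 in V2 at 0 d. Its counts outside V3 5 d were zeros, most of them failed, and it was not tested.

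**Figure D4:**
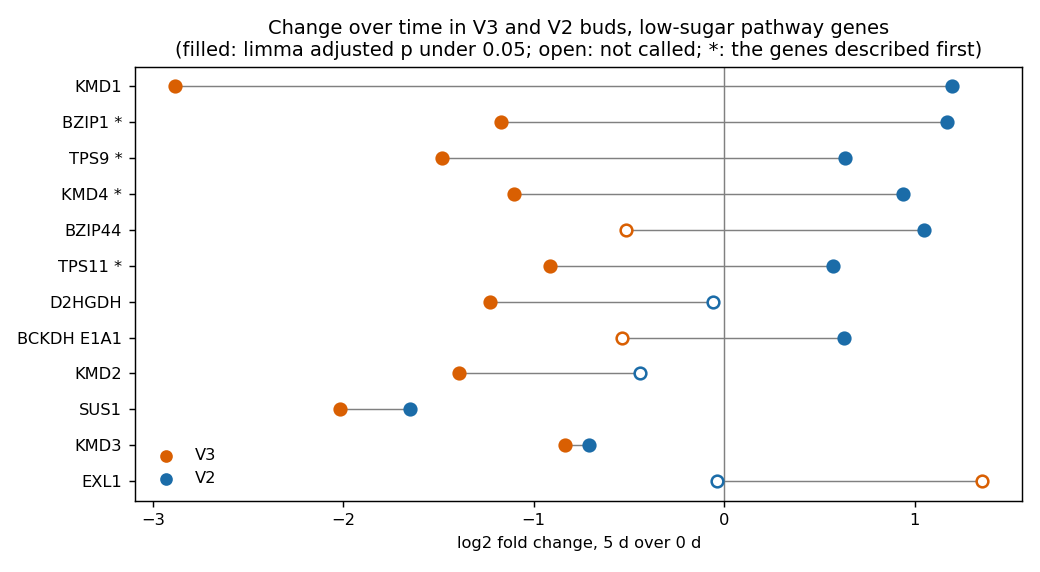
Log2 fold change of 5 d over 0 d in V3 and in V2 for the 12 genes of the low-sugar list that were tested in both zones, filled where the limma adjusted p is under 0.05, with stars on TPS9, TPS11, BZIP1 and KMD4. KMD1 has the widest gap between zones, at -2.88 in V3 and 1.20 in V2, while SUS1 and KMD3 fall in both.

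Markers of the tissues that a bud harvest can hold moved with the zones and times. Of 15 meristem and boundary loci, 5 could be paired (CUC1, CUC3, RAX1, KNAT6 and BOP2), and no paired marker of the 4 lists had an FPKM of 0 throughout a group. By count, XCP1 was listed at 0 in all libraries of both zones at 0 d, XCP2 in those of V2 at 0 d and NAP in those of V3 at 5 d. RBCS3B in V2 at 0 d (mean FPKM 163) and APL in V3 at 5 d (mean FPKM 1.77) were also listed at 0 in all libraries. Those zeros counted as failed. The summed FPKM of the meristem and boundary genes ranged from 16.2 to 19.2 in V3 and 33.4 to 39.9 in V2 at 5 d, and from 36.0 to 45.0 in V3 and 37.6 to 44.3 in V2 at 0 d. Of 12 vascular loci, 3 were paired (XCP1, XCP2 and APL), with sums of 21.8 to 23.0 in V3 and 5.60 to 11.9 in V2 at 5 d, and 0.638 to 1.87 in V3 and 1.74 to 4.43 in V2 at 0 d. The 2 paired photosynthetic loci of 10 (RBCS3B and FNR1) summed to 470 to 537 in V3 and 278 to 385 in V2 at 5 d, and to 208 to 257 in V3 and 217 to 255 in V2 at 0 d. For senescing leaves, 2 of 6 loci were paired (NAP and NYE1), summing to 6.61 to 7.58 in V3 and 12.8 to 17.9 in V2 at 5 d, and to 3.21 to 4.84 in V3 and 9.999 to 15.2 in V2 at 0 d. At 5 d the ranges of the meristem and boundary sum and the senescing-leaf sum lay lower in V3, and those of the vascular and photosynthetic sums higher, but not every gene followed its sum. APL averaged 1.77 FPKM in V3 and 2.89 in V2, and FNR1 109 in V3 and 110.3 in V2, while XCP1 (13.1 in V3 and 3.13 in V2), XCP2 (7.64 in V3 and 2.73 in V2) and RBCS3B (393 in V3 and 210.3 in V2) were higher in V3 in mean. NAP averaged 0.136 FPKM in V3 and 7.75 in V2, and NYE1 6.93 in V3 and 8.16 in V2. Their part in the differences of TPS9, TPS11, BZIP1, KMD4 and BCAT2 was not tested.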

How the data were processed

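Lateral buds of Arabis alpina were compared by zone (V3, V2) and time (5 d, 0 d), with 3 libraries per group. The submitters' processing notes name TopHat, HISAT2, StringTie and DESeq2, without versions or roles. The genome build is not given in the sources used here. The authors deposited gene counts divided by 1 factor per library, a signal that the file headers call counts. Whole reads were recovered from each library's smallest step (100% of values came out whole within 0.05). For replicate 2 of V2, at 5 d and 0 d, this rests on the smallest value. The authors' FPKM cover listed genes, and 1 gene with displaced cells was not read from that table. The authors deposited log2 fold changes with an absolute value above 1 and adjusted p-values under 0.05, which were used only to see which genes were listed. Per-sample columns left unused numbered 0.

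Zeros counted as failed where the library's FPKM was 1 or more, where FPKM implied 20 or more counts, or, lacking FPKM, where a partner library had 20 or more. This gave 17395 failed zeros, and 10989 genes had none. The partner rule removes low values and may understate spread. limma 3.58.1 (R 4.3.3) was run on log2(normalized count + 1), all 12 libraries in 1 fit with a mean per group. This scale understates the changes of low genes. Genes needed a mean of at least 10 and 2 usable libraries in each group compared, and Benjamini-Hochberg adjusted p under 0.05 was a call. The fit was also run on simulated counts, drawn independently with the same spread setting for every gene. That run cannot show how the fit performs under the uneven spread of these libraries. edgeR 4.0.16 and DESeq2 1.42.0 on recovered reads, other filters, pseudocounts, treatments of zeros, TMM factors and leaving out each library were alternatives. Exact permutation tests used scipy 1.17.1.

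The genes and lists were chosen with earlier results of these data known. All 5 genes are named. From the list of 73 loci, up to 3 called genes per role, direction and comparison and up to 2 uncalled genes could be named, and likeness names the 3 nearest genes with a symbol.

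Replicate numbers are not said to pair libraries. Over 18 pairs of same-numbered libraries, deviations correlated between -0.135 and 0.103, so they were not treated as pairs.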

Additional observations from a re-analysis of the deposited data

Results flagged for a closer look

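The change over time differed between the zones by the limma test of the difference itself in all 4 genes tested. BCAT2 was not tested. Of the 16043 genes tested, 3.35% were called in the same direction, 4.05% in the other and 7.4% in either. The change in V3 minus the change in V2 was -2.118 for TPS9, -1.486 for TPS11, -2.340 for BZIP1 and -2.041 for KMD4 on the log2 scale, with adjusted p of 0.000462, 0.0106, 0.00372 and 0.0191 in that order. The 4 share the same libraries and are not independent of each other, nor of the authors' listings, which rest on those libraries. KMD4 lost its call by limma without V3 5 d replicate 2 (adjusted p = 0.0503). It also lost it with only FPKM-contradicted zeros left out (adjusted p = 0.0504 by limma).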

How the results depend on the processing

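The count of genes called lower in V3 at 5 d stayed at 4 or 5 under every alternative and at 4 without any 1 library. At 0 d, where 1 of 5 was called, DESeq2 called 2, and leaving out 1 library gave 0 to 3, with 0 where BCAT2 could not be tested (without V3 0 d replicate 1 or 3). Of the 4 calls over time in V2, 2 remained with zeros as deposited, 2 with only FPKM-contradicted zeros left out, 1 with edgeR and 2 with the replicate number as a block, and leaving out 1 library gave 1 to 4. Over time in V3, 2 of 4 remained with only the 2 groups compared in the fit, and leaving out 1 library gave 3 to 4. Leaving out 1 library gave 3 to 4 calls for the difference of changes, and KMD4 stood at an adjusted p of 0.0504 (limma) with only FPKM-contradicted zeros left out. The sign of BCAT2 over time in V2, which was not called, turned to -0.11 without V2 0 d replicate 3 and -0.26 without V2 5 d replicate 2, and its highest value was 0.27, without V2 5 d replicate 1. Over all genes, the 649 calls at 0 d (179 higher, 470 lower) became 85 with only FPKM-contradicted zeros left out, 1711 with all partner-contradicted zeros left out, 394 with edgeR (250 higher, 144 lower), 2193 with DESeq2, 187 with only 2 groups and 299 with the block. The 6247 at 5 d became 3131 with zeros as deposited, 3163 with only FPKM-contradicted zeros left out and 2760 with edgeR. The same settings in that order gave 2140, 1694 and 1705 over time in V2 (3936), 2052, 2043 and 1583 over time in V3 (4176), and 764, 294 and 516 for the difference of changes (1187), which DESeq2 and leaving out all partner-contradicted zeros both put at 2051 and the block at 757. Leaving out 1 library gave 161 to 1655 calls at 0 d, 2033 to 4934 over time in V2 and 667 to 1929 for the difference. The cause was not tested. Few reads underlie the values of BZIP1 in V3 at 5 d (39 to 66 reads) and of BCAT2 in V3, in libraries that were not shallow. The intervals use the spread that limma pooled over the 4 groups of 3 libraries. They do not measure the spread within any single group.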
